A study of Mus musculus with 4 samples.

Results

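Genes annotated as antisense RNA are non-coding genes transcribed from the strand opposite to another gene. The table of the series lists 24169 genes, of which 1425 carry the biotype antisense RNA. The 183 antisense RNA genes described here had at least 1 FPKM (fragments per kilobase of exon, scaled to the number of mapped reads) in at least 2 of the 4 libraries. They were selected on these levels, which are therefore given as a description. Of the other 1242, 133 were listed at 0 in all 4 libraries. A sense partner is a protein-coding gene on the other strand whose span in the table overlaps the antisense gene by at least 1 base. Where several overlapped, the one with the longest overlap is called the main partner.

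The cells were C8-D1A, an established mouse astrocyte line, left untreated (the control group, 2 libraries) or kept for 24 h in MBP at 1 mM (2 libraries). The labels name the treatment only as MBP and give no genetic change, vehicle or passage for either group. Total RNA was depleted of ribosomal RNA and made into libraries with a kit that marks the strand, so RNA without a poly(A) tail could be sampled. The labels do not say whether replicate libraries stem from separate cultures. P-values here reflect only how far these 4 libraries differ, and that spread may be technical.

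Antisense transcripts can act on the gene they overlap in several known ways. The act of transcription can hinder the opposite polymerase, the RNA can recruit silencing complexes to chromatin, or it can pair with the sense transcript and alter its splicing, stability or translation. Kcnq1ot1 and Nespas are textbook cases from imprinted loci, where the antisense RNA is made from the paternal chromosome and neighbouring genes are silenced on it. Many other antisense RNAs start at the promoter of an active gene and run away from it, and have no function known.

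Antisense RNA genes in the set were mostly low. Their mean level over the 4 libraries ran from 0.863 to 22.9 FPKM with a median of 2.0, beside 6.98 for all 12403 genes that passed the same filter, 8.64 for its protein-coding genes and 2.42 for 128 genes typed processed transcript. There were 24 at a mean of 5 FPKM or more, 67 from 2 to under 5, and 92 under 2. All 4 libraries were at 1 FPKM or more in 138. The genes were also short, with a median of 1125.5 exon bases and 2 exons, against 4013 bases and 8 exons for all tested genes. The median antisense RNA gene therefore rested on 63.4 reads per library, beside 742 over all tested genes, and at 62.6 reads, the median of the 174 whose reads came out whole, counting error alone is 12.6%.

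The filter of 1 FPKM decided membership narrowly for some. Just inside it were Gm43140, K230015D01Rik and Gm15337, whose second-highest library had 1.007 to 1.009 FPKM. Just outside were B230369F24Rik at 0.994, 1700049J03Rik at 0.992 and Ppp1r18os at 0.974 FPKM. Only 7 entered through 1 group alone, and these had to differ between the groups. K230015D01Rik, AC159244.2, Gm11915 and 4732440D04Rik passed in both controls and in neither MBP library, and Gm43140, 4930539J05Rik and Gm20633 in both MBP libraries and in neither control.

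The highest antisense RNA gene was Brip1os (chromosome 11, 86201370 to 86304443, plus strand, GRCm38 as for all positions in the text), with 22.6 and 22.9 FPKM in untreated cells and 23.3 and 22.8 with MBP. Its 4 values lay within 1 FPKM of each other. Brip1os spans Ints2, which encodes a subunit of the Integrator complex and had 7.76 to 8.26 FPKM, and it meets the end of Med13, a Mediator subunit with 39.1 to 46.6 FPKM. Next came Hoxb5os (chromosome 11, 96291024 to 96306910, minus strand), which runs through the patterning genes Hoxb5 and Hoxb6. Hoxb5os had 14.3 and 14.4 FPKM in untreated cells and 13.6 and 14.1 with MBP, beside 18.1 to 19.7 FPKM for Hoxb6 and 5.85 to 7.51 for Hoxb5. A second gene of the same cluster, Hoxb3os, had only 0.968 to 1.21 FPKM beside 7.85 to 9.44 for Hoxb3. Both MBP values lay under the controls for Hoxb5os and above them for Hoxb3os, with unadjusted p values in limma's test over all genes of 0.407 and 0.415.

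Gm20628 came after these, at 9.84 and 13.2 FPKM in untreated cells and 13.3 and 11.2 with MBP. It is a single exon that covers 2 histone genes, Hist2h3b and Hist2h2bb, which share 15.2 and 11.9% of its bases. Near-identical copies of these genes elsewhere make reads over the shared bases uncertain on either strand. Zfhx2os followed at 10.7 to 12.3 FPKM inside Zfhx2, a homeobox transcription factor gene at 0.332 to 0.409 FPKM. The table's span of Zfhx2os is shorter than the GENCODE gene, so its level per base depends on the gene model used. The single-exon 6330403L08Rik, which starts head-to-head with the growth factor gene Pdgfa, had 7.72 to 8.49 FPKM beside 20.2 to 23.04 for Pdgfa. Gm26944 had 8.31 to 9.45 FPKM and meets the end of Pcf11, a factor of 3′ end formation at 12.9 to 13.6 FPKM. The last of the 8 highest, Gm11816, had 7.26 to 8.47 FPKM inside Clvs1, which was at 0.393 to 0.489.

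Of the 183 genes, 152 had a sense partner in the table and 31 had none. One partner was found for 129 and 2 or more for 23, up to 19 for BC037039, which lies in the protocadherin gamma cluster where long overlapping gene spans share their last exons. The 194 pairs held 192 partners, 137 of them past the filter. By arrangement, 59 antisense genes lay inside their main partner, 48 were head-to-head (both starts in the overlap), 38 were tail-to-tail (both ends in the overlap) and 7 enclosed the partner. In percent of the 152 these were 38.8, 31.6, 25 and 4.61. Among the 1066 antisense RNA genes under the filter that have a partner, the same arrangements made up 50.8, 29.0, 17.4 and 2.91%.

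A partner that passed the filter was about as frequent beside these genes as beside the antisense genes under it. The main partner passed for 112 of 152 (73.7%) and for 777 of 1066 (72.9%), and its median level was 7.86 and 4.77 FPKM. The partner was the higher of the pair in 100 cases, in each of the 4 libraries, and by a median factor of 3.05 over the 152 pairs. The antisense gene was higher in 52, in all 4 libraries for 48 of them. Head-to-head pairs had the most active partners, at a median of 12.7 FPKM, and the antisense gene was higher in 11 of 48. Antisense genes inside their partner were the higher in 23 of 59, with a median partner level of 6.54 FPKM. For tail-to-tail pairs the numbers were 13 of 38 and 7.01 FPKM, and for enclosed partners 5 of 7 and 7.99 FPKM.

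**Figure D1:**
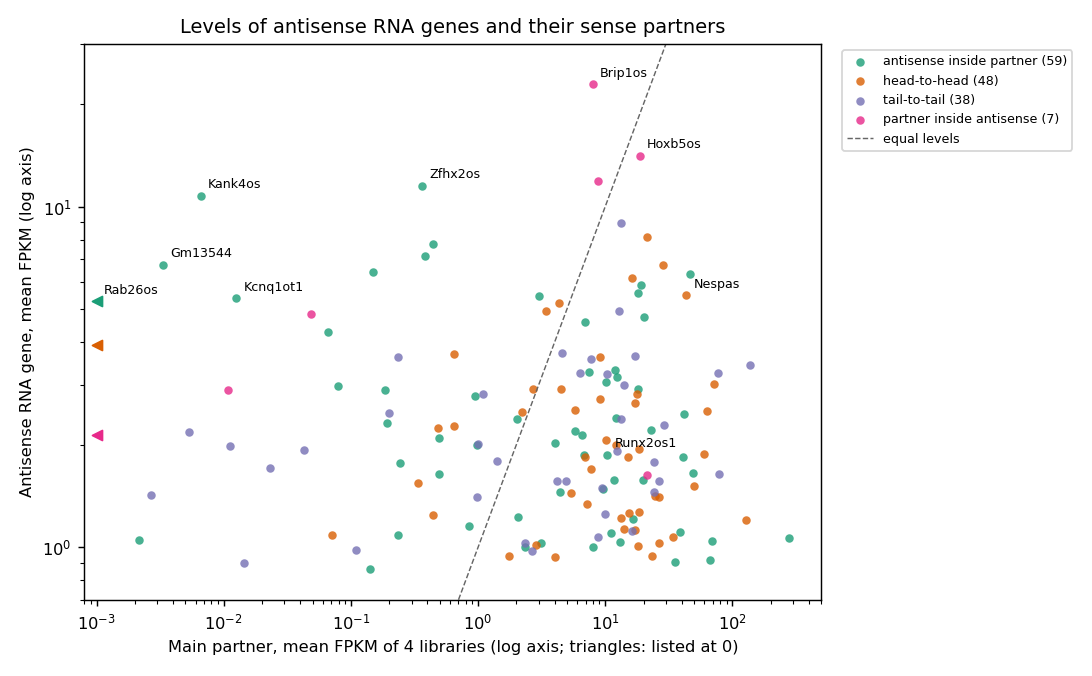
Mean FPKM over 4 libraries of 152 antisense RNA genes (vertical, log axis) against their main partners (horizontal, log axis), coloured by arrangement, with triangles for partners listed at 0 and a dashed line of equal levels. 52 points lie above the line and 100 below it, and antisense levels cover a far narrower range than partner levels.

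Across the 112 main pairs in which the partner also passed the filter, the levels, as log2(mean FPKM + 1), of the antisense gene and of its partner had a Pearson correlation of -0.017 and a Spearman correlation of -0.014. This describes pairs, which are not independent replicates and whose values come from the same 4 libraries, and the filter keeps out the lower antisense genes. Over all 152 pairs the partners reached from 0 to 280.8 FPKM. The partner was at least 10 times the antisense gene in 38 pairs and the antisense gene at least 10 times the partner in 26. The widest gap in favour of the sense gene was at Tpm4, a tropomyosin at 280.8 FPKM, whose antisense gene Gm26586 had 1.06.

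Some antisense genes lay over a nearly silent coding gene: 18 main partners had a mean under 0.1 FPKM. Kcnq1ot1 (chromosome 7, 143212155 to 143296549, minus strand) is the long paternal transcript that starts inside an intron of Kcnq1, a potassium channel gene. It had 5.72 and 4.12 FPKM in untreated cells and 6.07 and 5.64 with MBP, and its groups overlapped. As for Zfhx2os, the table's span is shorter than the GENCODE gene, so this level per base depends on the gene model used. Kcnq1 was listed at 0 in both controls and at 0.041 and 0.0094 FPKM in MBP. Its promoter and 1 place where its RNA covers a Kcnq1 coding exon are shown here because the level of the host gene and that of the antisense RNA lie so far apart. The promoter sequences in the text come from RefSeq (GRCm38.p6), which holds 77 of the 183 genes, and are given 5′ to 3′ on the strand of the antisense gene, with CCAAT and its complement ATTGG and the GC box GGGCGG and its complement CCGCCC in capitals. The Kcnq1ot1 stretch is chr7:143296548-143296697, minus strand, and ends 2 bases inside the gene.
Kcnq1ot1 promoter: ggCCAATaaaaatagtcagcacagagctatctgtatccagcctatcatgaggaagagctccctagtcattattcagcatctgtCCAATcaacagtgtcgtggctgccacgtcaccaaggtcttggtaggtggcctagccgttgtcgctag
It holds CCAAT at 2 places and no GC box.

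The shared stretch of this locus was read from the GENCODE release 21 transcripts. The antisense RNA is printed with 20 of its own bases in lower case, where Kcnq1 has an intron, and 40 bases in capitals that are also Kcnq1 coding sequence. The position is chr7:143261236-143261295, with the antisense on the minus strand and Kcnq1 on the plus strand.
Kcnq1ot1: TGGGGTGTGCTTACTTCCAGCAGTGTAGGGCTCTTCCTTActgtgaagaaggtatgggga
Kcnq1: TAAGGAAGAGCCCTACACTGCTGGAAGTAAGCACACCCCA
The capitals are complementary to each other base for base. The 121 bases of this exon are the only exon sequence the genes share.

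Kank4os (chromosome 4, 98793768 to 98798900, plus strand) has 3 exons inside Kank4, an ankyrin-repeat protein gene, and shares no exon base with it. It had 9.94 and 11.3 FPKM in untreated cells and 11.0 and 10.9 with MBP, while Kank4 was listed at 0 in control 1 and MBP 2 and at 0.018 and 0.0087 FPKM in the other two. Gm13544 (chromosome 2, 58276779 to 58286902, plus strand) lies inside Acvr1c, which encodes a type I receptor of the TGF-beta family. It had 6.44 and 6.05 FPKM in untreated cells and 6.75 and 7.77 with MBP, beside at most 0.0088 FPKM of Acvr1c. In both pairs every library had the antisense RNA far above the host gene, and the groups of Kank4os overlapped. Both MBP values of Gm13544 were above its controls (unadjusted p = 0.0789 in limma's test over all genes). Their promoters are chr4:98793618-98793767 and chr2:58276629-58276778, both plus strand, printed because each starts a transcript within a gene that shows almost none.
Kank4os promoter: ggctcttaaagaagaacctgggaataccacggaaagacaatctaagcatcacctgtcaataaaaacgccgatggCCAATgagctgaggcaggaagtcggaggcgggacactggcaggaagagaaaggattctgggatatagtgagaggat
Gm13544 promoter: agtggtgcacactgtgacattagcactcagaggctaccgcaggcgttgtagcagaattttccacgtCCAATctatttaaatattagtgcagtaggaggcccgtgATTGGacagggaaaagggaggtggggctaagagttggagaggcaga
Gm13544 also covers a coding exon of Acvr1c over 168 bases, part of which is shown at chr2:58284812-58284871 in the same way as for Kcnq1ot1, with the antisense on the plus strand.
Gm13544: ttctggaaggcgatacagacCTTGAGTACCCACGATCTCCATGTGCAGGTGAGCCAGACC
Acvr1c: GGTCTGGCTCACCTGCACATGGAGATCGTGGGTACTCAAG

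Other antisense genes shared the pattern at lower levels. Gm16098 had 1.31 to 1.55 FPKM at the end of Fam83c, of which a single library had a value above 0, at 0.011. Gm44700 had 0.802 to 1.23 FPKM over the calpain gene Capn12, again with 1 library above 0, at 0.0086. Gm2415 had 1.89 to 2.73 FPKM at the end of the integrin gene Itga9, which stayed at 0.0050 to 0.0055. Gm16098 and Gm2415 each also had a head-to-head partner above them, Eif6 at a mean of 18.2 FPKM and Ctdspl at 5.25. For these genes the nearly silent gene is only the partner with the longest overlap. Rab26os, a single exon of 497 bases in an intron of the GTPase gene Rab26, had 5.29 and 6.83 FPKM in untreated cells and 4.12 and 4.89 with MBP, with Rab26 listed at 0 in all 4 libraries. Gapdhs, the sperm form of a glycolytic enzyme, was listed at 0 too, under Tmem147os at 2.001 to 2.25 FPKM and Gm26935 at 2.94 to 4.75. Those 2 antisense genes overlap on the same strand, so reads in the stretch they share could belong to either.

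The second imprinted locus looked different. Nespas (chromosome 2, 174281237 to 174295436, minus strand) had 6.09 and 5.25 FPKM in untreated cells and 5.18 and 5.48 with MBP, with overlapping groups. Its partner Gnas, which encodes the stimulatory G protein alpha subunit and other products from several promoters, had 46.2 and 46.0 FPKM in untreated cells and 40.9 and 40.5 with MBP. Both MBP values of Gnas were under both controls (log2 change -0.17, SE 0.050), a difference that did not pass limma's test over all genes (adjusted p = 0.503).

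Many of the antisense genes named for a sense gene sat beside an active partner and stayed near the filter. Rab10os had 1.61 to 1.67 FPKM beside 75.2 to 81.3 for the membrane-traffic GTPase gene Rab10, and Rbm3os had 1.23 to 1.72 beside 46.3 to 51.9 for Rbm3, a cold-induced RNA-binding protein gene. Hk1os had 0.686 to 1.17 FPKM inside the hexokinase gene Hk1 at 32.9 to 36.4, and Phf2os1 had 1.17 to 2.47 beside 17.5 to 19.7 for the histone demethylase gene Phf2. Appbp2os had 1.91 to 3.48 FPKM beside 16.9 to 17.7 for Appbp2, and Zfp335os had 2.58 to 2.93 beside 8.53 to 9.76 for the zinc finger gene Zfp335. Lrrc75aos2 had 1.24 and 1.18 FPKM in untreated cells and 1.77 and 1.73 with MBP, beside 8.96 to 10.2 for Lrrc75a. Among these, Lrrc75aos2 alone had groups that did not overlap with an unadjusted p under 0.05 (0.0255, adjusted p = 0.503 in limma's test).

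Gt(ROSA)26Sor, the transcript of the locus widely used for knock-in mice, had 4.14 and 2.93 FPKM in untreated cells and 2.34 and 3.62 with MBP, and its end meets that of Thumpd3 at 6.10 to 6.63. Ptprtos, inside the receptor phosphatase gene Ptprt at 0.320 to 0.470 FPKM, had 7.95 and 5.39 in untreated cells and 6.30 and 8.95 with MBP. Both antisense genes differed more between replicates than between group means. Sp3os had 2.33 to 2.81 FPKM, and its start faces Sp3, a GC-box factor gene at 22.01 to 23.2. By the longest overlap its main partner is Gm11084, with a mean of 2.22 FPKM beside 2.50 for Sp3os. Which of those was higher differed between libraries. Prox2os had 1.57 to 2.35 FPKM beside 0.931 to 1.13 for Prox2, and Rapgef4os1 had 1.11 to 1.39 inside Rapgef4, a cyclic AMP sensor gene at 1.82 to 2.24. The lower end of the named genes held Mtag2 (1.39 to 1.87 FPKM), Ccdc142os (1.45 to 2.05), Srrm4os (0.857 to 1.11) and Tspan32os (0.660 to 1.57), whose main partners Ppfia3, Gm42688, Srrm4 and Tspan32 were all under 0.4 FPKM.

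Whether reads of one strand were counted for the gene on the other is not given in the sources used here, so pairs that share exon bases were compared with what the partner's reads would bring. Of the 1425 antisense RNA genes, 31 lie wholly inside exons of a partner, and in 17 of these the partner had at least 10 FPKM. All 17 had at least 1 read in some library, and none of them is in the set of 183. Their reads came to between 0.0143 and 3.32% of the reads that the partner's FPKM gives over the same bases, with a median of 0.496%. Gm11583, for example, had 1 read in control 1 and 0 in the other 3 libraries, where Kpnb1, a nuclear import gene at 153.8 FPKM, would give 1752 over the 466 shared bases. Sass6 (10.9 FPKM), with Gm42893 inside its exons, gave the highest share.

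In the set, 123 of 152 main pairs share exon bases, 82 of them coding, with a median of 277 bases or 19.6% of the antisense exons among pairs that share any. Of the 3 that lie wholly inside partner exons, Gm28959 and Gm42457 had 13.5 and 41.25 reads per library, or 42.8 and 66.8% of what the partner's FPKM gives. Their partners Abhd14b and Mfsd14a had 2.34 and 6.88 FPKM. Reads of the antisense gene were above 3.32% of the partner's share in 121 of the 122 main pairs that have a partner value above 0. This is a description only, since the set was selected on its level and the 17 genes that gave the limit did not pass that filter. The measure is also unlike between them. It counts reads over all exons of the antisense gene, shared or not, whereas every exon base of the 17 is shared. Reads from exons that are not shared raise the share, so the 2 sets cannot be set against each other by it. The lowest share was that of Gm17036 at 2.46%, with 5.75 reads per library beside 233 from the motor protein gene Kif5b. Another 29 main pairs have no exon base in common. BC037039 is one of these, but it shares 1559 exon bases with another partner, the protocadherin gene Pcdhgc3 at 185.3 FPKM, and its 175.5 reads per library were 2.49% of that gene's share. Gm26586 (4.92% of Tpm4) and Gm17092 (5.16% of Hnrnpd) came next.

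**Figure D2:**
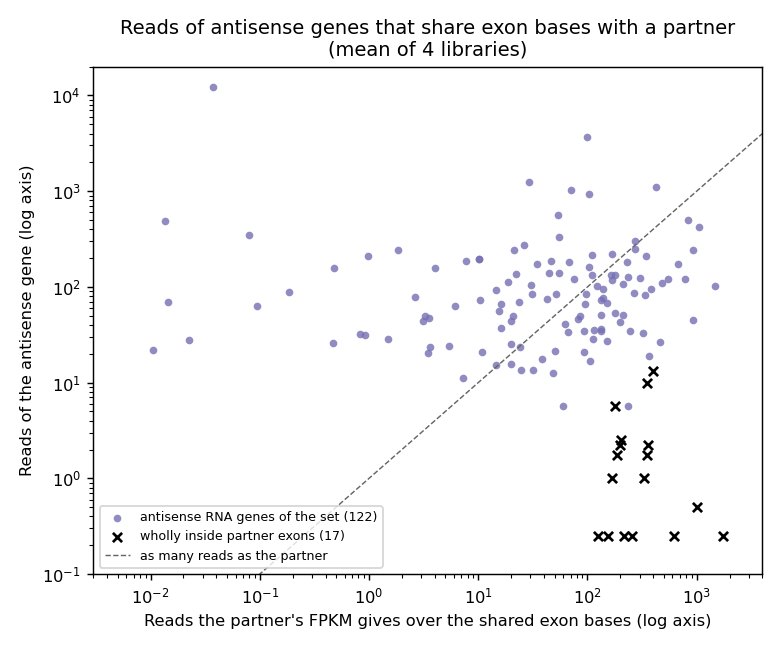
Mean reads per library of antisense genes (vertical, log axis) against the reads that the partner's FPKM gives over the shared exon bases (horizontal, log axis), for 122 genes of the set (circles) and 17 antisense genes wholly inside exons of a partner at 10 FPKM or more (crosses), with a dashed line of equal numbers. The crosses all lie at or under 3.32% of the partner's reads, and 121 of the 122 circles, which were selected on their level, lie above that share. Antisense reads are those over all exons, also exons that are not shared, whereas the exons of the crosses are wholly shared.

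The effect of 24 h in MBP was asked of each antisense RNA gene, with limma on log2(FPKM + 1), fitted over all 12403 genes. None of the 183 reached an adjusted p under 0.05, and neither did any other gene of the table (0% called). The lowest adjusted p in the set was 0.457. An unadjusted p under 0.05 was found for 25 of the 183, or 13.7%, beside 9.68% of all genes. Of these, 12 had higher values in MBP (6.56% of the set, beside 3.81% of all genes) and 13 lower (7.10%, beside 5.87%). Groups did not overlap in 71, or 38.8%, beside 44.8% of all genes. In 37 of them both MBP values were higher (background 21.3%) and in 34 lower (background 23.5%). These counts include the 7 genes that entered the set through 1 group alone, 3 higher and 4 lower in MBP. The filter had fixed their direction, so they are no support, and the shares without them were not computed. By limma-voom on reads recovered from FPKM, 0 of 176 antisense genes were called, beside 0.124% of all genes. An unadjusted p under 0.05 in that fit was found for 19 of the 176 (10.8%), beside 11.5% of all genes. In bulk RNA of this kind, fewer cells making a transcript and less of it per cell cannot be told apart.

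The median log2 change of the 183 was 0.0084 (-0.0043 after quantile normalization), with 94 above 0 and 89 below, and its quartiles were -0.12 and 0.13. All tested genes had a median of -0.0048, protein-coding genes -0.012 and processed transcripts 0.023. Standard errors were wider in the set, at a median of 0.131 against 0.082 for all tested genes. Replicates of the set lay about as far apart as the groups did. As a root-mean-square distance in log2(FPKM + 1), the control pair lay 0.259 apart and the MBP pair 0.272. The distance ran from 0.254 (control 2 and MBP 2) to 0.317 (control 2 and MBP 1) across groups.

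Among genes with at least 2 FPKM in the higher group, the 6 with the lowest p and higher values in MBP are given as values, since none passed. In 4833413G10Rik, a single-exon gene, the controls had 1.90 and 1.83 FPKM and the MBP libraries 3.07 and 2.74. Both MBP values were above both controls, with a log2 change of 0.44 (SE 0.092, unadjusted p = 0.00468, adjusted p = 0.457). AV099323 had 1.25 and 1.24 FPKM in untreated cells and 1.86 and 2.22 with MBP (log2 change 0.43, SE 0.111). Gm15718, inside the deubiquitinase gene Zranb1, had 1.72 and 2.59 FPKM in untreated cells and 4.43 and 3.48 with MBP (log2 change 0.66, SE 0.172). Its difference was the widest of the set on the higher side, and it rested on 23.3 reads per library.

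Gm15860, head-to-head with the chromatin gene Bcl7a, had 1.77 and 1.43 FPKM in untreated cells and 2.74 and 2.33 with MBP. Gm26935 had 3.64 and 2.94 in untreated cells and 4.75 and 4.39 with MBP. A730011C13Rik, inside the lipid kinase gene Pi4kb, had 2.52 and 2.36 in untreated cells and 3.72 and 3.09 with MBP. The MBP values of all 3 were above their controls, with log2 changes of 0.44 (SE 0.118), 0.38 (SE 0.105) and 0.36 (SE 0.103) and adjusted p values in limma's test of 0.496, 0.503 and 0.503. A neighbour of the last, Gm15265, lies inside Pi4kb as well and had 5.57 and 5.53 FPKM in untreated cells and 5.87 and 5.35 with MBP, so its groups overlapped.

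On the lower side, among genes with at least 2 FPKM in the higher group, the lowest p was that of Runx2os1 (chromosome 17, 44735845 to 44737612, plus strand), which lies inside Runx2, the master regulator of bone formation. It had 2.33 and 2.52 FPKM in untreated cells and 1.37 and 1.27 with MBP, and rested on 36 reads per library. The log2 change was -0.56 (SE 0.097, unadjusted p = 0.0021, adjusted p = 0.457). Gm16537, head-to-head with the glycerol phosphate dehydrogenase gene Gpd1, had 4.80 and 4.47 FPKM in untreated cells and 2.44 and 3.02 with MBP (log2 change -0.60, SE 0.104). Gpd1 was at 0.535 to 0.777 FPKM. Gm10863 had 8.11 and 8.63 FPKM in untreated cells and 6.38 and 6.26 with MBP (log2 change -0.36, SE 0.064). In these 3 both MBP libraries were under both controls, and the adjusted p was 0.457 for each.

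2810001G20Rik had 3.73 and 4.34 FPKM in untreated cells and 2.69 and 2.81 with MBP, with a log2 change of -0.42 (SE 0.092). BC037039, in the protocadherin gamma cluster, had 3.45 and 4.002 in untreated cells and 2.71 and 2.91 with MBP, with a log2 change of -0.31 (SE 0.094). Pcdhgc3, with which it shares exon bases, had 189.6 and 192.0 FPKM in untreated cells and 183.9 and 175.6 with MBP. Gm27003 had 4.46 and 4.10 in untreated cells and 2.44 and 3.50 with MBP, with a log2 change of -0.43 (SE 0.144). Their groups did not overlap either, and the adjusted p values in limma's test were 0.484, 0.503 and 0.503.

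**Figure D3:**
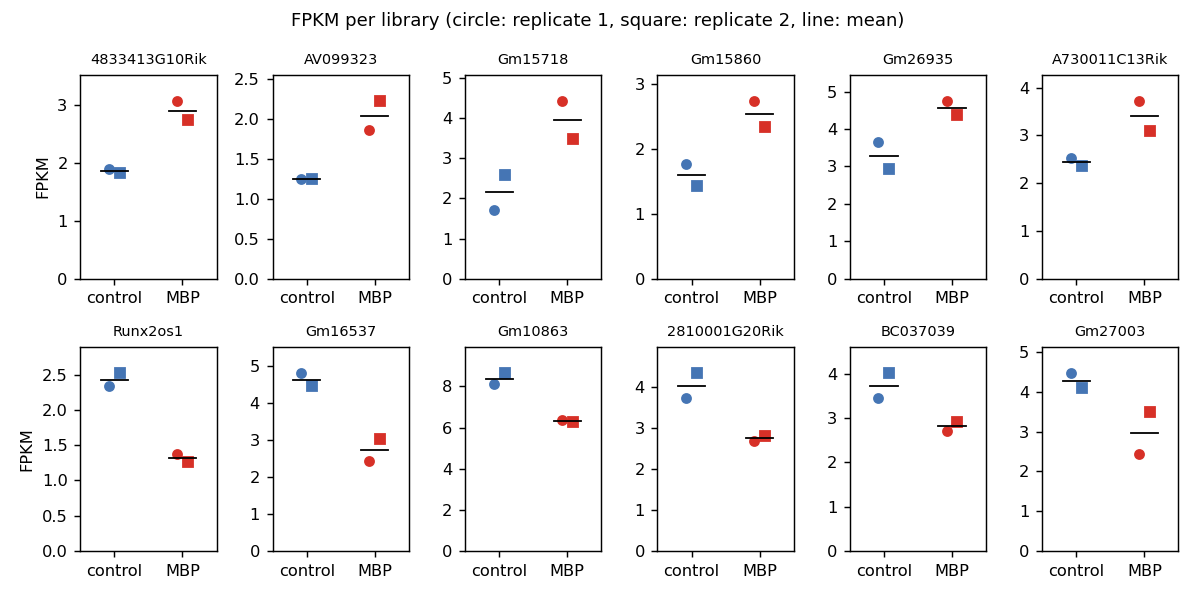
FPKM in each library for the 6 antisense RNA genes with the lowest p and higher values in MBP (upper row) and the 6 with lower values (lower row), with circles for replicate 1, squares for replicate 2 and a line at each group mean. In all 12 the control and MBP values do not overlap, and none of the differences passed the test over 12403 genes.

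Partners were asked the same question. Of 137 tested, none was called and the lowest adjusted p was 0.457, while 10 had an unadjusted p under 0.05, or 7.30% beside 9.68% of all genes. Of these, 4 were higher in MBP (2.92%, beside 3.81%) and 6 lower (4.38%, beside 5.87%). Groups did not overlap in 61, or 44.5%, beside 44.8% of all genes. Their median log2 change was 0.0082. The lowest p belonged to Ino80b, a chromatin remodelling subunit, with 7.73 and 7.93 FPKM in untreated cells and 5.58 and 4.92 with MBP (log2 change -0.50, SE 0.077). Its antisense gene Gm44287 had 1.56 and 2.34 in untreated cells and 1.87 and 2.80 with MBP, so its groups overlapped. Pcbp1, an RNA-binding protein gene, had 138.4 and 143.6 FPKM in untreated cells and 115.9 and 113.5 with MBP. Hnrnpd, which encodes an RNA decay factor, had 35.5 and 32.5 in untreated cells and 44.4 and 41.8 with MBP. These partners were picked after their values were seen.

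Changes of the antisense gene and of its main partner went together about as often as apart. In the 112 main pairs with both genes tested, the sign of the log2 change was the same in 57 (28 with both higher, 29 with both lower) and opposite in 55. The Pearson correlation of the changes was -0.056 and the Spearman correlation -0.061, as a description over pairs that share libraries. By arrangement the median change of the antisense gene was 0.036 inside the partner, -0.040 head-to-head, 0.0069 tail-to-tail and 0.0084 for enclosed partners. The medians of their partners lay between -0.018 and 0.018. No test was made of these medians.

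**Figure D4:**
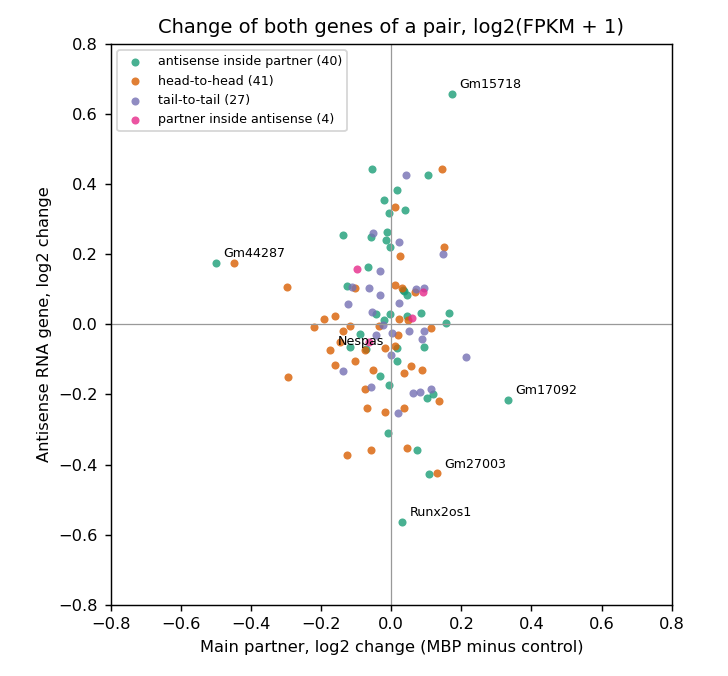
Log2 change (MBP minus control, log2 of FPKM + 1) of 112 antisense RNA genes (vertical) against that of their main partners (horizontal), coloured by arrangement. The points spread over all 4 quadrants, with 57 of the same sign and 55 of opposite sign, and further along the antisense axis than along the partner axis.

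The ratio of antisense to sense within a pair was tested over all 1047 opposite-strand pairs of the table in which both genes passed the filter, 138 of them from this set. Limma called none of them at an adjusted p under 0.05 (0% of the 1047), and the lowest adjusted p in the set was 0.365. An unadjusted p under 0.05 was found for 21 pairs, 9 with a higher and 12 with a lower ratio in MBP, or 15.2% beside 8.12% of all pairs. These pairs are not independent, since BC037039 enters the lower ones repeatedly, over Pcdhgb5, Pcdhgb6, Pcdhga12 and Pcdhga9. The lower ones also hold Gm11915 over Epha7 and 4732440D04Rik over Rb1cc1, whose antisense genes passed the filter through the controls alone. The share without these pairs was not computed. By limma-voom on recovered reads, 0.123% of 1620 pairs were called and no pair of the set. The pair of Runx2os1 and Runx2 had the lowest p. Runx2 had 10.5 and 10.005 FPKM in untreated cells and 10.9 and 10.1 with MBP, so the log2 ratio differed by -0.59 (SE 0.111, adjusted p = 0.365).

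Gm17092 had 1.24 and 1.28 FPKM in untreated cells and 1.20 and 0.719 with MBP, and its partner is Hnrnpd, for a log2 difference in ratio of -0.55 (SE 0.145). This value was -0.78 with a pseudocount of 0.01 and -0.31 after a GC and length correction. Gm11915, in an intron of the ephrin receptor gene Epha7, had 1.61 and 1.07 FPKM in untreated cells and 0.933 and 0.539 with MBP on 9 reads per library, beside 11.1 to 14.2 for Epha7. Its ratio differed by -0.53 (SE 0.147). Since Gm11915 entered the set through its controls alone, its own level had to be lower in MBP. Gm27003 is head-to-head with Gabpb1, a subunit of an ETS transcription factor with 8.65 and 8.70 FPKM in untreated cells and 9.61 and 9.56 with MBP, and the ratio differed by -0.55 (SE 0.154). BC037039 over Pcdhgb5 differed by -0.52 (SE 0.164), with Pcdhgb5 at 1.07 to 1.67 FPKM. The adjusted p values of these 4 were 0.535, 0.535, 0.535 and 0.566.

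Single libraries decided whether any ratio was called. Without MBP 1, limma called 1.72% of all pairs and 2 of the set. One was Gm44287 over Ino80b (log2 difference in ratio 0.95), where Gm44287 rests on 15.25 reads per library. The other was Gm11915 over Epha7, where the filter had fixed the direction of Gm11915, so its call is no support. With all 4 libraries the ratio of Gm44287 to Ino80b differed by 0.68 (SE 0.214, adjusted p = 0.566 in limma's ratio fit). Without MBP 2 it called 2.48% of all pairs and 4 of the set: Gm27003 over Gabpb1, Gm20628 over Hist2h2bb, 2900089D17Rik over Bri3 and Gm17036 over Kif5b, with adjusted p values from 0.00713 to 0.0418. In those fits the lone MBP library is assumed to vary like the other group, and no pair was called in both.

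Among the 31 antisense genes without an overlapping coding gene, 18 lay back to back with one. They start within 2000 bases of the start of a protein-coding gene on the other strand and run away from it, with a median gap of 221 bases to the nearest opposite-strand coding gene over all 31. This search and its limit were chosen after the values were seen. Several of the coding neighbours were abundant. Gm4285 (2.54 FPKM) starts 129 bases from Tpt1, a translationally controlled growth gene at 540.1 FPKM, and Gm12279 (1.00) starts 130 bases from the polyubiquitin gene Ubb at 198.6. AV099323 starts 43 bases from Pcna, the replication clamp gene. Pcna had 81.2 and 90.7 FPKM in untreated cells and 76.0 and 76.7 with MBP, and AV099323 was higher in both MBP libraries, as given.

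Gm10863 (chromosome 15, 79166041 to 79227524, plus strand) starts 1551 bases from Sox10, a transcription factor of neural crest and oligodendrocyte cells. Sox10 had 99.97 and 96.1 FPKM in untreated cells and 89.6 and 87.8 with MBP, so both genes had their 2 MBP values under their 2 controls (for Sox10 a log2 change of -0.14, SE 0.055, adjusted p = 0.514 in limma's test). 2810001G20Rik starts 16 bases from Cox10, a gene of haem A synthesis at 6.42 to 7.25 FPKM whose groups overlapped. Map2k3os (chromosome 11, 60920917 to 60931867, minus strand) starts 166 bases from the stress kinase gene Map2k3. It had 7.86 and 6.44 FPKM in untreated cells and 7.34 and 7.18 with MBP, and Map2k3 had 29.7 to 33.7. Med9os (1.05 to 1.47 FPKM) starts 64 bases from the Mediator gene Med9 at 7.11 to 7.79. The promoters of Map2k3os (chr11:60931868-60932017, minus strand) and Gm10863 (chr15:79165916-79166065, plus strand, ending 25 bases inside the gene) are shown as examples of starts that face a coding gene.
Map2k3os promoter: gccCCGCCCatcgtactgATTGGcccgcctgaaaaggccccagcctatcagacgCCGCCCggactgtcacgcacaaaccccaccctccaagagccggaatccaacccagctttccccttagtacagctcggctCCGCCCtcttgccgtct
Gm10863 promoter: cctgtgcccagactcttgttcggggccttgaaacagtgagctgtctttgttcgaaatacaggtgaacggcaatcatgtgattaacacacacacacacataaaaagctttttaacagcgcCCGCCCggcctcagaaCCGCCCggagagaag
The first holds 3 GC boxes and the second 2, against none in those of Kcnq1ot1, Kank4os and Gm13544.

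Over windows of 300 bases (250 before to 50 after the RefSeq start) GGGCGG on either strand was found in 53.2% of the 77 promoters, beside 35.6% of all 32817 promoters of the table. The share was 75% for genes without a partner (16 promoters), 73.3% for tail-to-tail genes (15), 47.8% for head-to-head genes (23) and 28.6% for genes inside their partner (21). The median number of CpG dinucleotides was 20 in the 77 and 7 in all promoters, and 6 in those inside the partner. CCAAT on either strand was in 36.4%, beside 37.4% of all, and TATAAA in 7.79%, beside 13.6%. Only 48 of the 77 RefSeq starts lie within 100 bases of the start in the table, and a motif match is a description of letters, not a site. The 77 belong to genes selected on their level, whereas the 32817 were not filtered by level. The part of level in these differences was not tested.

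Well-known antisense and opposite-strand RNAs differed widely in level in this line. Of 41 on a list, 23 are in the table, 11 passed the filter and 3 belong to the set, namely Kcnq1ot1, Nespas and Hoxb5os. The same filter passed 12403 of all 24169 genes and 183 of the 1425 antisense RNA genes. None of the 11 was called. Tsix, the antisense of Xist, was at 0 to 0.013 FPKM, Uchl1os at 0 to 0.038 and Hotairm1, of the Hoxa cluster, at 0.120 to 0.414. The forebrain and neural antisense genes Dlx1as, Emx2os and Nkx2-2os had 0.151 to 0.364, 0.431 to 0.564 and 0.327 to 0.506 FPKM. Others of the list passed under the type processed transcript, among them Gas5 at 17.1 to 17.8 and Dleu2 at 5.92 to 6.94 FPKM. Mir22hg (7.12 to 8.14 FPKM) and Zfas1 (5.56 to 7.36) have that type too. Wrap53, typed protein-coding, had 6.79 to 7.63 FPKM.

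The libraries held 23571000 to 25907000 reads, recovered from the steps of the FPKM values and rounded. As a check of the labelled cell type, 3 of 10 astrocyte markers passed the filter (Vim, S100b and Sox9) and 4 were under 0.1 FPKM, while Gfap stood at 0.119 to 0.282 and Slc1a3 at 0 to 0.0045. Their sum, nearly all of it Vim, was 537.0 and 540.0 FPKM in untreated cells and 508.2 and 495.4 with MBP. Among the 4 oligodendrocyte lineage markers that the table holds, 2 passed, Sox10 among them, and their sum was 109.9 to 114.9 FPKM in the controls and 101.6 to 102.5 in MBP. Neuronal markers passed for 2 of 4 (Tubb3 and Map2), with sums of 32.6 to 35.4 and 25.5 to 25.9 FPKM. Microglial, fibroblast and endothelial lists passed for 1 of 3, 2 of 5 and 1 of 5, with sums of at most 9.29 FPKM. The part of these lists in the values of Gm10863 and other antisense genes was not tested.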

How the data were processed

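The authors deposited 1 table of FPKM with symbols, biotypes and positions. Per the submitters' processing notes, bcl2fastq, HISAT2 and GRCm38 were used. Not given in the sources used here are the counting program, its annotation and its use of strand. Columns were matched to samples by title, and 24 symbols that had become dates were recovered by gene identifier. GENCODE mouse release 21 gave exons for 182 of the 183 genes, 174 with the same coordinates. FPKM times exon length gave reads, whole within 0.05 in 174 of the 183.

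Limma 3.58.1 in R 4.3.3 (eBayes with a trend, two-sided, Benjamini-Hochberg adjustment, threshold 0.05) was fitted to log2(FPKM + 1), so fold changes understate those of low genes. It was also run on simulated data, whose outcome is not reported here. Ratios were fitted likewise over all opposite-strand pairs. Named genes are the 6 with the lowest p in each direction at 2 FPKM or more in the higher group, the 8 highest, those with a given symbol, and the 6 with the highest level ratio and the 6 lowest p in the ratio fit. Genes and lists were chosen with earlier results of these data known. Intended lincRNA comparisons used processed transcripts, since no gene has that type. Of the pairs this rule takes, 1 is not reported here.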

Additional observations from a re-analysis of the deposited data

How the results depend on the processing

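With other pseudocounts (0.1 and 0.01), no filter, a filter of 5 FPKM, TPM, median-of-ratios or quantile scaling, a GC and length correction, no spread trend, a robust spread, limma-voom on recovered reads, or any 1 library left out, 0 of the antisense RNA genes and 0 of their partners were called. A count of 0 in each of these fits says nothing about stability. The median change of the partners moved from 0.0082 to 0.031 on TPM, and the cause was not tested. That of the antisense genes, 0.0084, became 0.032 on TPM, 0.042 with the GC and length correction and -0.0043 with quantile normalization. Leaving out 1 library gave medians of -0.030 to 0.040 for the antisense genes and -0.0017 to 0.0098 for the partners. The number of called ratios ran from 0 to 4 with 1 library left out: 2 without MBP 1 and 4 without MBP 2. The antisense gene was above its partner in 51 to 52 pairs with 1 library left out, and in 33 of the 123 pairs that share exon bases, where fewer pairs were counted. The last 2 checks were added after seeing the data. In 256 fits of the 18 single changes that the naming rule takes, none reversed. Among these changes, the ratio of Gm11915 to Epha7 differed by -0.71 without MBP 1. That of Gm27003 to Gabpb1 differed by -0.75 without MBP 2. These ratios were called in those fits only, as given above. The filter had fixed the direction of Gm11915, though not that of Epha7. No paired analysis was possible because the sample titles of control and MBP share only 1 number, and no label says that it pairs samples. Depth limits single genes most: 45 of the 174 with whole reads had under 30 reads per library.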
